A study of Mus musculus with 15 samples.

Results

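The genes described here are 7 that encode members or partners of the C/EBP family of transcription factors: Cebpa, Cebpb, Cebpd and Cebpg, which encode C/EBPα, C/EBPβ, C/EBPδ and C/EBPγ, Ddit3, which encodes CHOP, Nfil3, and Cebpz. They were chosen by name, with no threshold on their counts but with earlier results of these data known. The names matched 8 of the 55416 rows of the count table, because Ddit3 has 2 identifiers. The shorter of these, ENSMUSG00000116429, lies wholly within the exons of the other and held 0 counts in all 15 libraries. The other 7 rows passed the filter on low counts, as did 18244 of the 35525 genes with any count.

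The RNA came from cultured neural precursor cells, which divide in the adult hippocampus and give rise to neurons and glia, taken from female mice 6 weeks old. Each of 3 stable lines carried a piggyBac insertion with a TetON-3G transactivator driven by an SV40 promoter and a puromycin selection gene, and each line gave 5 libraries. In the Atf3 line the cassette also held the Atf3 coding sequence under the doxycycline-inducible TRE3G promoter, in the Atf4 line the Atf4 coding sequence, and in the control line neither. All cultures, controls included, had EGF and FGF withdrawn to start differentiation, received doxycycline at 100 ng/ml at the same time and were harvested after 10 h. Each construct is represented by 1 line, so line and transgene cannot be told apart. Nothing in the labels says that the replicates were separate cultures, and the p-values measure the spread between these libraries, which may be technical.

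C/EBP proteins are basic leucine zipper (bZIP) factors, which bind DNA as dimers with each other and with related factors such as ATF4. C/EBPα, C/EBPβ and C/EBPδ carry activation domains and are known for driving fat cell, myeloid and acute-phase gene programmes, whereas C/EBPγ lacks an activation domain and CHOP has an altered basic region that changes which sites its dimers can bind. When the kinases that phosphorylate eIF2α are active, ATF4 is translated and, with C/EBP partners, drives a stress programme that includes Ddit3 itself. NFIL3 (E4BP4) is a bZIP repressor whose binding sites are shared with the PAR bZIP activators DBP, TEF and HLF. Cebpz is the outlier of the group: its protein has no bZIP domain, was named for binding the CCAAT box, and is related to the yeast nucleolar protein Noc1.

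The promoters are shown first because several of these genes changed together. RefSeq (GRCm38.p6) gave the 250 bases before the start site for 5 of the 7 genes, Cebpa, Cebpb, Cebpg, Ddit3 and Nfil3; Cebpd and Cebpz were not matched. Both strands were searched for the C/EBP-ATF composite element TGATGNAA, the full CRE TGACGTCA, its core TGACG, the AP-1 site TGANTCA, the C/EBP site TTNNGNAA and the CCAAT box, of which the core lies within the full CRE. The windows below are those of Cebpa and Cebpb, the pair with the greatest rises, and of Cebpg and Ddit3, read 5′ to 3′ on the gene's strand. Capitals mark every match.
Cebpa (chr7:35119043-35119292, plus strand): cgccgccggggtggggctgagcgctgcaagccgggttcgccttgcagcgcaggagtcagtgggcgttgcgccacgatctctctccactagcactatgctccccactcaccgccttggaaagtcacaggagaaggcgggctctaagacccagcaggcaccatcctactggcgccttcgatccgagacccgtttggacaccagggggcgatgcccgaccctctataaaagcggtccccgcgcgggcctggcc
Cebpb (chr2:167688665-167688914, plus strand): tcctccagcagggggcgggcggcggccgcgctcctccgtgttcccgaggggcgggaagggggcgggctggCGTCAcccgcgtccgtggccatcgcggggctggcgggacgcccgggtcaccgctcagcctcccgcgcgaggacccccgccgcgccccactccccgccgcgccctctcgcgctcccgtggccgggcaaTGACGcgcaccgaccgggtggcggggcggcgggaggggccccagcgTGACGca
Cebpg (chr7:35056567-35056816, minus strand): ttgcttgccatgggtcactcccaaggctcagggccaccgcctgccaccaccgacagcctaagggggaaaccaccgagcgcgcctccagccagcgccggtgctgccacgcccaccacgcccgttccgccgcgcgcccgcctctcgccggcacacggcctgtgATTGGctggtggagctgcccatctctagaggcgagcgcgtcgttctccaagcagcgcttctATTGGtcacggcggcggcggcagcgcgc
Ddit3 (chr10:127290543-127290792, plus strand): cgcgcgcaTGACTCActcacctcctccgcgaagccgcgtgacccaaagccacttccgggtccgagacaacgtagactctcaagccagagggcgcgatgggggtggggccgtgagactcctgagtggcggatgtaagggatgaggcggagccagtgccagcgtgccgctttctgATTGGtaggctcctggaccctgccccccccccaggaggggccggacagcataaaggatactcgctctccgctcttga

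The window of Cebpb held the CRE core 3 times, with first bases 180, 53 and 7 bases before the start and the farthest of them on the opposite strand. None of the 6 motifs occurred in the window of Cebpa. Cebpg had the CCAAT box on the opposite strand 89 and 28 bases before its start. Ddit3 held an AP-1 site 242 bases before its start and a CCAAT box 77 bases before it, the latter on the opposite strand. In Nfil3 (not printed) a CCAAT box stood at 77 bases and the CRE core at 59. Among 32536 mouse promoter windows of the same length, the CRE core occurred in 17.9%, the AP-1 site in 6.73%, the CCAAT box in 33.8%, the C/EBP site in 36.8%, the full CRE in 1.56% and the composite element in 3.40%. The full CRE, the C/EBP site and the composite element were in none of the 5 windows. Sequence farther upstream or past the start site was not searched. Sites of Ddit3 or the other genes that lie outside these windows would therefore have been missed. These windows were GC-rich, at 64.8 to 81.6% against a median of 52.4%. A match is a run of letters and not a measured binding site.

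Library totals were 53.7 to 69.6 M counts. Levels are given in CPM, counts scaled to the TMM-adjusted library total, as the mean ± SD of 5 libraries. Atf3 mRNA stood at 5.02 ± 4.10 CPM in controls and 1941 ± 119.5 CPM with the Atf3 transgene, and at 1.40 ± 0.31 CPM in the Atf4 line. Atf4 mRNA stood at 83.2 ± 6.75 CPM in controls, 250.3 ± 16.5 with the Atf3 transgene and 153.2 ± 21.7 with its own. The control libraries held 1.67, 3.02, 1.85, 10.99 and 7.55 CPM of Atf3, so that replicates 4 and 5 stood above the others, and 1 of the alternative analyses left out this pair. Among markers of neural precursor cells, Sox2 had line means of 224 to 233 CPM, and Prom1 means of at most 0.0998 CPM. Of the 8 markers 7 were tested, of which 3 rose and 2 fell in the Atf3 line, and 4 rose and 2 fell in the Atf4 line. Over all genes tested the shares were 36.8% and 36.3%, and 31.8% and 29.6%. Hes5, a Notch target, fell by 3.44 on the log2 scale with the Atf3 transgene and by 1.75 with the Atf4 transgene, and Fabp7 rose by 1.18 and 0.70.

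Against control, 6 of the 7 genes rose in the Atf3 line and 4 of 7 in the Atf4 line, and none fell in either. Of all genes tested, 36.8% rose and 36.3% fell in the Atf3 line, and 31.8% rose and 29.6% fell in the Atf4 line. Counts in the marker and pathway lists also stand beside these shares. In the Atf4 line set against the Atf3 line, 6 of the 7 were lower and none was higher, where 23.8% of all genes were lower and 19.5% higher. The call of Cebpd in the Atf3 line was lost in 19 of 25 alternative analyses, which leaves 5 of 7 there. The counts of 0 held with DESeq2, with limma-voom and at an unadjusted p under 0.05 in edgeR. With upper-quartile scaling Cebpd was called lower in the Atf4 line (-0.22 on the log2 scale). Nfil3 was called higher in the Atf4 than in the Atf3 line with plain library totals (0.31) and without Atf3 replicate 4 (0.30). The 2 comparisons with control share the control libraries and are not independent. In 5 genes every Atf3 library lay above every control library, as in 32.0% of all genes. In the Atf4 line the same held for 4 genes, against 26.1%. In 4 genes every Atf4 library lay below every Atf3 library, against 16.3%. In bulk RNA a higher level per cell and a larger number of expressing cells cannot be told apart.

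**Figure D1:**
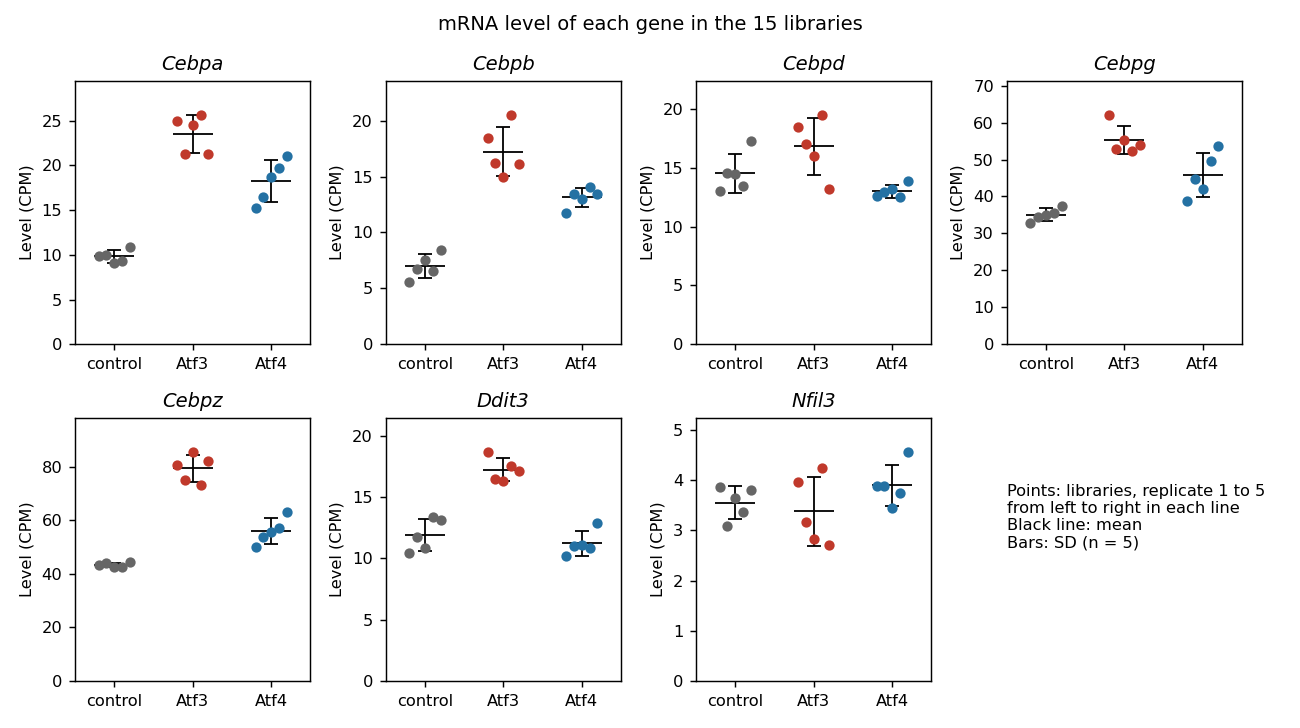
Level of each of the 7 genes in CPM (vertical axis, from 0) in the 15 libraries of the control, Atf3 and Atf4 lines; points are libraries, the black line is the mean and bars are the SD (n = 5). Cebpa, Cebpb and Cebpz stand in 3 separate bands, while Cebpd and Nfil3 overlap between lines.

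Cebpa and Cebpb rose most, 2.39- and 2.47-fold in the Atf3 line and 1.86- and 1.88-fold in the Atf4 line. Cebpa (ENSMUSG00000034957, chr7:35119293-35121928, plus strand, GRCm38), which encodes the activator that arrests the cell cycle in several lineages, read 9.84, 9.99, 9.09, 9.29 and 10.9 CPM in control replicates 1 to 5. The Atf3 libraries read 24.99, 21.2, 24.5, 25.6 and 21.3 CPM, and the Atf4 libraries 15.3, 16.4, 18.7, 19.8 and 21.1 CPM. No library of any line overlapped another line, although the highest Atf4 library lay just under the lowest Atf3 library. The log2 difference from control was 1.26 ± 0.08 (SE; adjusted p = 5.6e-11) in the Atf3 line and 0.89 ± 0.08 (adjusted p = 1.9e-08) in the Atf4 line. Between the Atf4 and Atf3 lines it was -0.37 ± 0.08 (adjusted p = 0.00106).

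Cebpb (ENSMUSG00000056501, chr2:167688915-167690418, plus strand) encodes C/EBPβ, whose single-exon mRNA is translated into long activating and short inhibitory forms that a count per gene does not separate. Control libraries read 5.57, 6.76, 7.54, 6.57 and 8.47 CPM, Atf3 libraries 18.5, 16.2, 14.9, 20.5 and 16.1 CPM, and Atf4 libraries 11.7, 13.5, 13.0, 14.0 and 13.5 CPM. Again the lines did not overlap. Cebpb rose by 1.30 ± 0.10 on the log2 scale in the Atf3 line (adjusted p = 7.0e-10) and by 0.91 ± 0.10 in the Atf4 line (adjusted p = 2.2e-07), and was lower in the Atf4 than in the Atf3 line by a log2 difference of -0.39 ± 0.10 (adjusted p = 0.00268). The library kit does not mark strand, and 312 bases of Cebpb (20.7% of its exons) overlap exons of Tmem189 on the other strand. Tmem189 differed from control by 0.44 on the log2 scale in both lines and by -0.0039 between them. Among all genes, 88.6% changed less than Cebpa and 89.4% less than Cebpb in the Atf3 line.

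Cebpd, the acute-phase member that is induced early in fat cell and astrocyte responses, gave smaller differences from control than Cebpa and Cebpb. Its levels (ENSMUSG00000071637, chr16:15887286-15891031, plus strand) were 13.1, 14.6, 14.5, 13.5 and 17.3 CPM in the control libraries, 18.5, 17.0, 16.0, 19.5 and 13.2 CPM in the Atf3 libraries and 12.6, 12.9, 13.2, 12.5 and 13.9 CPM in the Atf4 libraries. All 3 lines overlapped. The Atf3 line passed the test against control by a small margin, at 0.21 ± 0.09 on the log2 scale (adjusted p = 0.0405). That call was lost in 19 of 25 alternative analyses, whose adjusted p ranged from 0.00188 to 0.467. Leaving out any of 12 single libraries ended it, at 0.16 to 0.21 on the log2 scale. Of the single omissions it withstood those of control replicate 5, Atf3 replicate 3 and Atf3 replicate 5, at up to 0.29. The difference of the Atf4 line from control was -0.16 ± 0.09 (adjusted p = 0.122, interval -0.34 to 0.01), and with upper-quartile scaling it became -0.22 (adjusted p = 0.0370). Cebpd was lower in the Atf4 than in the Atf3 line, by a log2 difference of -0.37 ± 0.09 (adjusted p = 0.00234). It shares 562 exon bases (15%) with Spidr on the other strand, and Spidr rose by 0.31 and 0.44 on the log2 scale in the Atf3 and Atf4 lines.

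**Figure D2:**
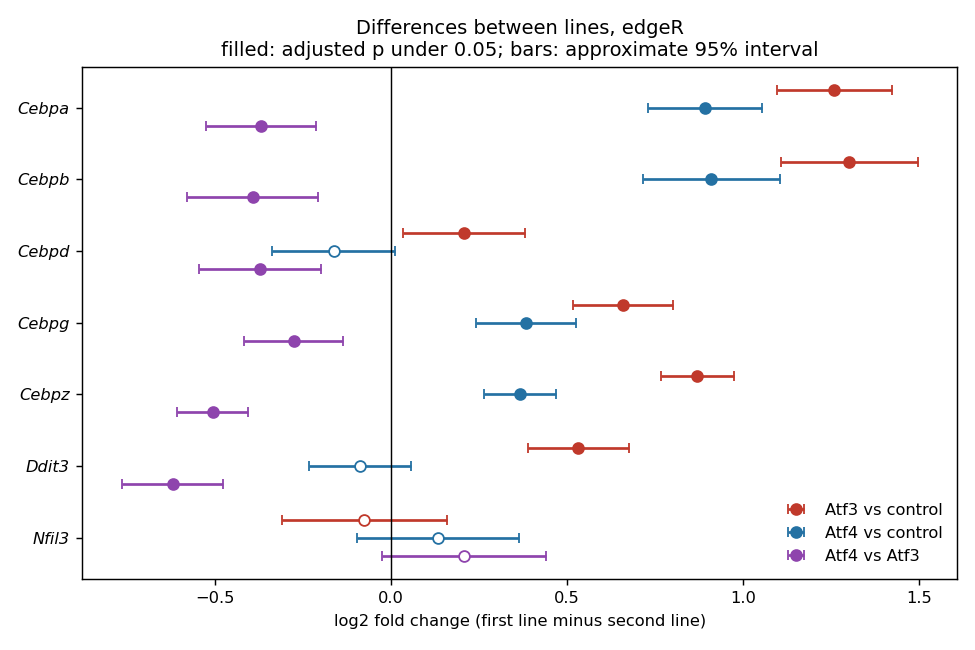
Log2 difference between lines (horizontal axis) for each of the 7 genes from edgeR; bars are approximate 95% intervals, and filled points passed an adjusted p of 0.05. For Ddit3 the Atf3 line lies to the right of 0 at 0.53, and the interval of the Atf4 line spans 0.

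Cebpg and Ddit3 encode heterodimer partners of ATF4. Cebpg rose in both transgenic lines, and Ddit3 rose in the Atf3 line and did not pass the test in the Atf4 line. Cebpg (ENSMUSG00000056216, chr7:35046422-35056573, minus strand) read 32.7, 34.4, 34.9, 35.5 and 37.5 CPM in control, 62.0, 52.9, 55.4, 52.4 and 54.0 CPM in the Atf3 line and 38.7, 44.8, 42.0, 49.5 and 53.6 CPM in the Atf4 line. Both transgenic lines lay above all controls, and they overlapped each other. Cebpg rose by 0.66 ± 0.07 (adjusted p = 1.7e-07) and by 0.38 ± 0.07 (adjusted p = 1.6e-04) on the log2 scale. The Atf4 line was lower than the Atf3 line by a difference of -0.28 ± 0.07 (adjusted p = 0.00476). With plain library totals that difference was -0.17 and the call was lost (adjusted p = 0.0540).

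Ddit3 (ENSMUSG00000025408, chr10:127290774-127296288, plus strand), a textbook target of ATF4, read 10.4, 11.7, 10.8, 13.3 and 13.1 CPM in control and 18.7, 16.5, 16.3, 17.5 and 17.1 CPM in the Atf3 line. In the Atf4 line it read 10.2, 11.02, 11.04, 10.9 and 12.9 CPM, within the range of the control libraries but for the lowest. Ddit3 rose by 0.53 ± 0.07 in the Atf3 line (adjusted p = 1.5e-06, 1.45-fold), with no overlap. In the Atf4 line its log2 difference from control was -0.09 ± 0.07 (adjusted p = 0.320), with an interval of -0.23 to 0.06. Without control replicates 4 and 5, its 2 highest control libraries, the difference was 0.02 (adjusted p = 0.870). Ddit3 was 1.54-fold lower in the Atf4 than in the Atf3 line (log2 difference -0.62 ± 0.07, adjusted p = 2.1e-06), and those lines did not overlap. On the opposite strand 68 of its exon bases (3.97%) belong to Mars, a methionyl-tRNA synthetase gene that rose by 1.63 and 1.52 on the log2 scale in the Atf3 and Atf4 lines. How many of the Ddit3 counts came from those bases was not tested.

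Cebpz (ENSMUSG00000024081, chr17:78919006-78937066, minus strand) varied least of the 7 genes between the control libraries. It read 43.4, 44.0, 42.7, 42.6 and 44.5 CPM in control, 80.8, 75.2, 85.5, 73.3 and 82.3 CPM in the Atf3 line and 50.2, 53.6, 55.8, 57.1 and 63.2 CPM in the Atf4 line. The lines did not overlap. Cebpz rose by 0.87 ± 0.05 (adjusted p = 7.4e-12) in the Atf3 line and by 0.37 ± 0.05 (adjusted p = 4.3e-06) in the Atf4 line, and the Atf4 line stood lower than the Atf3 line by a difference of -0.51 ± 0.05 (adjusted p = 4.4e-07).

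A list of 14 nucleolar genes was set beside it because of the kinship with Noc1. This list, like the others, was chosen with earlier results of these data known. All 14 rose in both lines, with a median log2 difference of 1.11 in the Atf3 and 0.64 in the Atf4 line. Of all genes tested, 36.8% and 31.8% rose. All 14 were lower in the Atf4 than in the Atf3 line (median -0.51), as were 23.8% of all genes. Over all genes tested the medians were -0.017, -0.00085 and 0.0070. Noc2l, a partner of Noc1-type proteins in pre-ribosome export, went from 43.7 ± 0.98 CPM to 154.5 ± 13.7 in the Atf3 line (log2 difference 1.82 ± 0.10, adjusted p = 1.6e-10) and 98.3 ± 16.9 in the Atf4 line (1.17 ± 0.10, adjusted p = 5.4e-08). Rrp12, a ribosome export factor, rose by 1.98 ± 0.14 (adjusted p = 5.4e-09) and 1.19 ± 0.14 (adjusted p = 3.2e-06).

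Nfil3 (ENSMUSG00000056749, chr13:52967209-52981073, minus strand) had the lowest level of the 7, at 161 to 276 counts per library, and passed no test. Its control libraries read 3.87, 3.08, 3.64, 3.37 and 3.80 CPM, the Atf3 libraries 3.96, 3.17, 2.83, 4.24 and 2.71 CPM, and the Atf4 libraries 3.88, 3.88, 3.44, 3.75 and 4.56 CPM. Every pair of lines overlapped. The log2 difference from control was -0.07 ± 0.12 in the Atf3 line (adjusted p = 0.584, interval -0.31 to 0.16) and 0.13 ± 0.12 in the Atf4 line (adjusted p = 0.336, interval -0.10 to 0.36). Without Atf3 replicate 5 the former was 0.0011 (adjusted p = 0.994). Between the Atf4 and Atf3 lines the difference was 0.21 ± 0.12 (adjusted p = 0.164). That last value passed with plain library totals, at 0.31 (adjusted p = 0.0386), and without Atf3 replicate 4, at 0.30 (adjusted p = 0.0444).

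The PAR bZIP genes, whose products share DNA sites with NFIL3, went in different directions. Hlf rose from 11.3 ± 0.89 CPM to 27.5 ± 2.21 with the Atf3 transgene and 21.2 ± 2.285 in the Atf4 line (log2 differences 1.28 ± 0.07 and 0.90 ± 0.07, adjusted p = 5.0e-12 and 2.3e-09). Dbp fell from 27.9 ± 1.92 to 13.8 ± 1.79 and 17.6 ± 3.84 CPM (-1.02 ± 0.13 and -0.66 ± 0.13, adjusted p = 4.5e-06 and 3.9e-04). Of 17 PAR bZIP and clock genes, 8 rose and 8 fell in the Atf3 line, and 4 rose and 10 fell in the Atf4 line, with medians of -0.13 and -0.20. The shares of all genes were 36.8% and 36.3%, and 31.8% and 29.6%. Among the clock repressors, Cry1 rose by 0.87 ± 0.05 and 0.47 ± 0.06, and Per3 fell from 39.7 to 25.6 CPM in the Atf3 line.

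Per kilobase of merged exon, which allows levels of different genes to be compared, the genes spanned a range from Nfil3, the lowest in all 3 lines, to Cebpz, the highest. The order in the control line was Cebpz at 9.32 ± 0.18 CPM per kilobase, Ddit3 at 6.94 ± 0.77, Cebpg at 6.23 ± 0.31, Cebpb at 4.64 ± 0.72, Cebpd at 3.89 ± 0.44, Cebpa at 3.72 ± 0.27 and Nfil3 at 1.75 ± 0.16. Libraries of Ddit3 and Cebpg overlapped in this measure, as did those of Cebpb and Cebpd and of Cebpd and Cebpa. In the Atf3 line Cebpz stood at 17.1 ± 1.09, followed by Cebpb (11.5 ± 1.48), Ddit3 (10.04 ± 0.55), Cebpg (9.84 ± 0.69), Cebpa (8.92 ± 0.79), Cebpd (4.50 ± 0.65) and Nfil3 (1.67 ± 0.34), and each neighbouring pair from Cebpb to Cebpa overlapped. In the Atf4 line the order was Cebpz (12.02 ± 1.04), Cebpb (8.73 ± 0.58), Cebpg (8.13 ± 1.06), Cebpa (6.92 ± 0.90), Ddit3 (6.54 ± 0.59), Cebpd (3.48 ± 0.14) and Nfil3 (1.92 ± 0.20), with overlap between neighbours from Cebpb to Ddit3. Ddit3 thus stood at place 2 in control and place 5 in the Atf4 line. Its place depends on length: over the principal transcript of 0.89 kb, rather than 1.71 kb of merged exon, Ddit3 ranked at 1 in control and at 2 in the other lines.

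As a share of the summed CPM per kilobase of the 7 genes, Cebpa made up 10.2 ± 0.57% in control, 14.04 ± 0.72% with the Atf3 transgene and 14.5 ± 0.86% in the Atf4 line. Cebpb made up 12.7 ± 1.35%, 18.02 ± 1.72% and 18.3 ± 0.97%. For Ddit3 the shares were 18.98 ± 1.48%, 15.8 ± 0.47% and 13.7 ± 0.51%. Shares of Cebpa and Cebpb were thus nearly equal in both transgenic lines and above control, and that of Ddit3 was highest in control and lowest in the Atf4 line. The sum itself was 34.0 to 40.1 CPM per kilobase in control, 60.1 to 67.9 in the Atf3 line and 42.5 to 53.5 in the Atf4 line. A smaller share is therefore not a lower level: Ddit3 mRNA rose in the Atf3 line while its share fell. Within each library, a ratio that does not depend on scaling, Ddit3 over Cebpb was 1.26 to 1.78 in control (1.51 ± 0.21), 0.75 to 0.96 in the Atf3 line (0.88 ± 0.08) and 0.68 to 0.84 in the Atf4 line (0.75 ± 0.06). Ddit3 over Cebpa was 1.87 ± 0.21, 1.13 ± 0.09 and 0.95 ± 0.08. Ddit3 over Cebpg was 1.11 ± 0.09, 1.02 ± 0.05 and 0.81 ± 0.06, and here every Atf4 library lay below the others while Atf3 and control libraries overlapped. Whether a ratio lies above or below 1 depends on the length used. By principal transcript length the means of all 3 ratios were above 1 in every line, the lowest being 1.30 for Ddit3 over Cebpg in the Atf4 line, and the order of the lines was the same. These ratios are descriptions and were not tested.

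**Figure D3:**
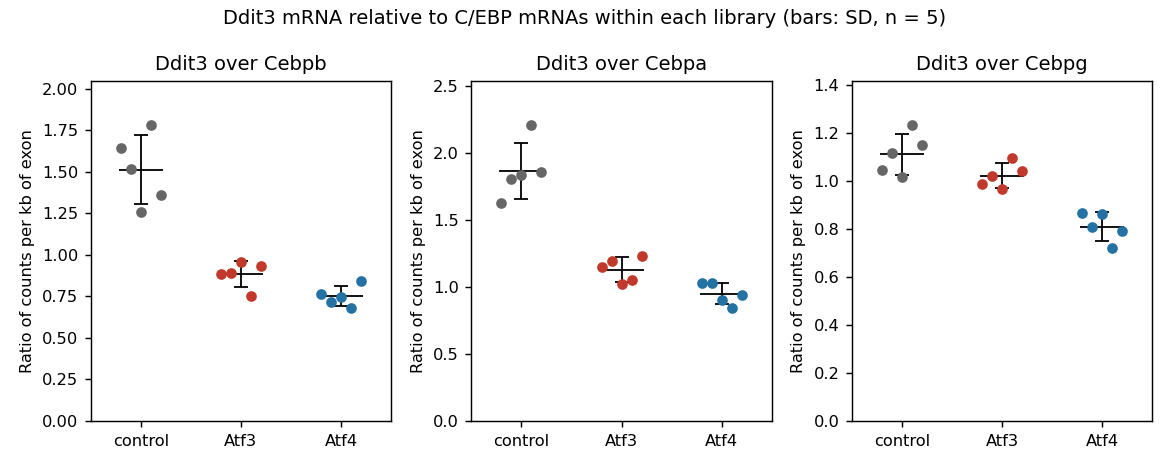
Ratio of Ddit3 to Cebpb, Cebpa and Cebpg (vertical axes, from 0, in counts per kilobase of merged exon) within each of the 15 libraries; points are libraries, the line is the mean and bars are the SD (n = 5). Control libraries lie above both transgenic lines for Cebpb and Cebpa, and for Cebpg the Atf3 and control libraries overlap.

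Within lines, 1 library tended to be high in several genes at once. Atf4 replicate 5 was the highest Atf4 library for 6 of the 7 genes, all but Cebpb, and its Atf4 mRNA, 187.7 CPM, was also the highest of that line. Without Atf4 replicate 5 the rise over control was 0.82 for Cebpa, 0.31 for Cebpg and 0.30 for Cebpz on the log2 scale, and all 3 calls held. This library also stood off across the whole count table. Its chi-square per degree of freedom against replicates 1, 2 and 3, at 53.4, 32.96 and 26.3, was the largest among pairs of Atf4 libraries. Against replicate 4 it was 11.7. Control replicate 5 was the highest control library for 5 of the 7. Atf3 replicate 4 was the highest of its line for 4 genes, among them all of Cebpa, Cebpb and Cebpd. No library stood apart from its group for any of the 7 genes by Dixon's criterion. Between libraries of a line, edgeR's biological coefficient of variation ran from 6.16% for Cebpz to 11.6% for Nfil3, around a median of 7.58% over all genes.

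The genes with the most similar profile over the 15 libraries were sought among 11580 protein-coding genes, by the root mean square difference in log2 CPM after each gene was centred on its control mean. For Cebpa these were Smyd5 (0.067), B3galt6 (0.080) and Myo1c (0.080), and for Cebpb they were Foxf1 (0.13), Ybx3 (0.14) and Nhp2 (0.14). Cebpd was followed by Ccdc71l (0.10), Rnf113a2 (0.11) and Rras (0.12). Closest to Cebpg were Stard5 (0.067), Zfp365 (0.070) and Arpc5l (0.074). Cebpz had the closest neighbours of all 6 genes examined, Etf1 (0.033), Esf1 (0.045) and Cep68 (0.050). The neighbours of Ddit3 were Coq10b (0.088), Arl4c (0.092) and Zfp566 (0.11). Etf1 encodes a translation release factor, and Esf1 and Nhp2 encode nucleolar proteins. Whether the neighbours as a whole share a function was not tested. For comparison, the distance of each gene from its own control mean was 0.897 for Cebpa, 0.935 for Cebpb, 0.205 for Cebpd, 0.452 for Cebpg, 0.549 for Cebpz and 0.334 for Ddit3.

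Genes downstream of CHOP and ATF4 were described from a list of 14, chosen with earlier results of these data known. In each transgenic line 10 rose and 3 fell, with median log2 differences of 0.89 in the Atf3 and 0.72 in the Atf4 line. Of all genes tested, 36.8% rose and 36.3% fell in the Atf3 line, and 31.8% and 29.6% in the Atf4 line. In the Atf4 line against the Atf3 line 10 were lower, against 23.8% of all genes. Without control replicates 4 and 5, 11 rose in the Atf3 line, and 9 were lower in the Atf4 than in the Atf3 line. Trib3, a pseudokinase induced by ATF4 with CHOP, went from 0.782 ± 0.11 CPM to 11.8 ± 2.24 in the Atf3 line (log2 difference 3.91 ± 0.35, adjusted p = 1.6e-07) and 4.45 ± 2.66 in the Atf4 line (2.49 ± 0.36, adjusted p = 3.8e-05). Chac1, a glutathione-degrading enzyme, rose by 3.37 ± 0.40 (adjusted p = 3.5e-06) and 2.34 ± 0.41 (adjusted p = 2.3e-04). Bcl2l11, the pro-apoptotic BIM gene, fell instead, from 80.3 ± 6.87 to 34.7 ± 5.12 and 40.8 ± 8.55 CPM (-1.21 ± 0.14 and -0.98 ± 0.14, adjusted p = 2.3e-06 and 2.8e-05). Ppp1r15a, whose product GADD34 reverses eIF2α phosphorylation, fell in the Atf4 line by a log2 difference of -0.67 ± 0.10 (adjusted p = 3.5e-05). Atf4 line libraries of Trib3 spanned 2.66 to 9.08 CPM, a wider relative range than those of Ddit3.

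Upstream, 4 of 9 eIF2 kinases and unfolded protein sensors rose and 3 fell in each transgenic line, with medians of 0.029 and 0.072, near those over all genes. Hspa5, the endoplasmic reticulum chaperone BiP, rose by 0.70 ± 0.04 (adjusted p = 2.0e-12) and 0.57 ± 0.04 (adjusted p = 1.0e-10), and Ern1, which encodes the sensor IRE1α, fell by 0.32 and 0.35 on the log2 scale.

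Of 22 other bZIP partners, a list that includes Atf3 and Atf4 themselves, 19 were tested, and Cebpe, the remaining C/EBP gene, had 0 counts in every library. Against control 7 rose and 5 fell in the Atf3 line, while in the Atf4 line 5 rose and 12 fell, with medians of -0.00071 and -0.58. These counts stand beside the shares of all genes given above (36.8% higher and 36.3% lower in the first comparison, 31.8% and 29.6% in the second). Without control replicates 4 and 5 the counts were 7 and 4 in the Atf3 line and 4 and 10 in the Atf4 line. Fosb and Fos, which encode AP-1 subunits, varied widely in control, from 2.39 to 48.7 and from 20.7 to 255.6 CPM. Atf5, a C/EBP partner close to ATF4, rose by 0.89 ± 0.04 in the Atf4 line (adjusted p = 1.7e-12). The 3 Tribbles genes, and Cop1, which encodes the ubiquitin ligase COP1, were all called higher with the Atf3 transgene, against 36.8% of all genes. All 4 were lower in the Atf4 than in the Atf3 line, against 23.8% of all genes. Without control replicates 4 and 5 the former count was 3 of 4. In the Atf4 line against control, 1 of the 4 rose, 1 fell and 2 were not called. The riser was Trib3, which is also among the CHOP and ATF4 targets above, and Cop1 fell by 0.11 on the log2 scale. Shares of all genes in that comparison were 31.8% higher and 29.6% lower. Trib1 stood at 17.2 ± 2.97 CPM in control and 31.8 ± 5.98 in the Atf3 line (log2 difference 0.89 ± 0.18, adjusted p = 6.1e-04).

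Genes known as C/EBP targets in other tissues were mostly too low to test. Of 13 acute-phase and inflammatory targets 5 passed the filter, and 2 rose and 1 fell in each line. Without control replicates 4 and 5, 1 rose and 1 fell in the Atf4 line. Timp1, a metalloproteinase inhibitor, rose by 0.63 ± 0.16 (adjusted p = 0.00151) in the Atf3 line, or 0.41 without control replicates 4 and 5, and by 0.98 ± 0.16 (adjusted p = 1.6e-05) with the Atf4 transgene. Serpina3n, an acute-phase protease inhibitor, fell by 0.44 on the log2 scale in the Atf3 line (adjusted p = 1.1e-04), and Csf3, a granulocyte growth factor, fell by 1.49 in the Atf4 line (adjusted p = 5.6e-07). Both Timp1 and Csf3 had low levels. In the control, Atf3 and Atf4 lines Timp1 stood at 0.83, 1.27 and 1.63 CPM, and Csf3 at 1.78, 1.73 and 0.64 CPM. Of 10 adipogenic targets and partners 5 were tested, of which 3 rose and 1 fell in the Atf3 line and 3 rose and 2 fell in the Atf4 line (3 and 1 without control replicates 4 and 5). Scd1, a fatty acid desaturase, rose by 0.85 ± 0.08 (adjusted p = 4.7e-08) and 0.53 ± 0.08 (adjusted p = 1.8e-05). Signals known to induce Cebpb and Cebpd were represented by 12 genes of STAT3 and glucocorticoid signalling, of which 11 were tested. In the Atf3 line 5 rose and 5 fell, and in the Atf4 line 2 rose and 6 fell, with medians of -0.029 and -0.20. Without control replicates 4 and 5 the counts in the Atf4 line were 2 and 5. For all lists of this paragraph the shares of all genes were 36.8% and 36.3%, and 31.8% and 29.6%. Stat3 itself fell from 340.2 ± 12.2 CPM to 169 ± 7.61 in the Atf3 and 179 ± 15.045 in the Atf4 line (-1.01 ± 0.05 and -0.93 ± 0.05, adjusted p = 3.0e-13 and 2.7e-12). The glucocorticoid-induced genes Fkbp5 and Tsc22d3 rose, Fkbp5 by 1.43 ± 0.08 and 1.34 ± 0.08 and Tsc22d3 by 1.23 ± 0.06 and 0.59 ± 0.06. They were the only 2 genes of this list to rise in the Atf4 line. Sgk1, also of the list, was lower in the Atf4 than in the Atf3 line, by a log2 difference of -1.15 ± 0.11.

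**Figure D4:**
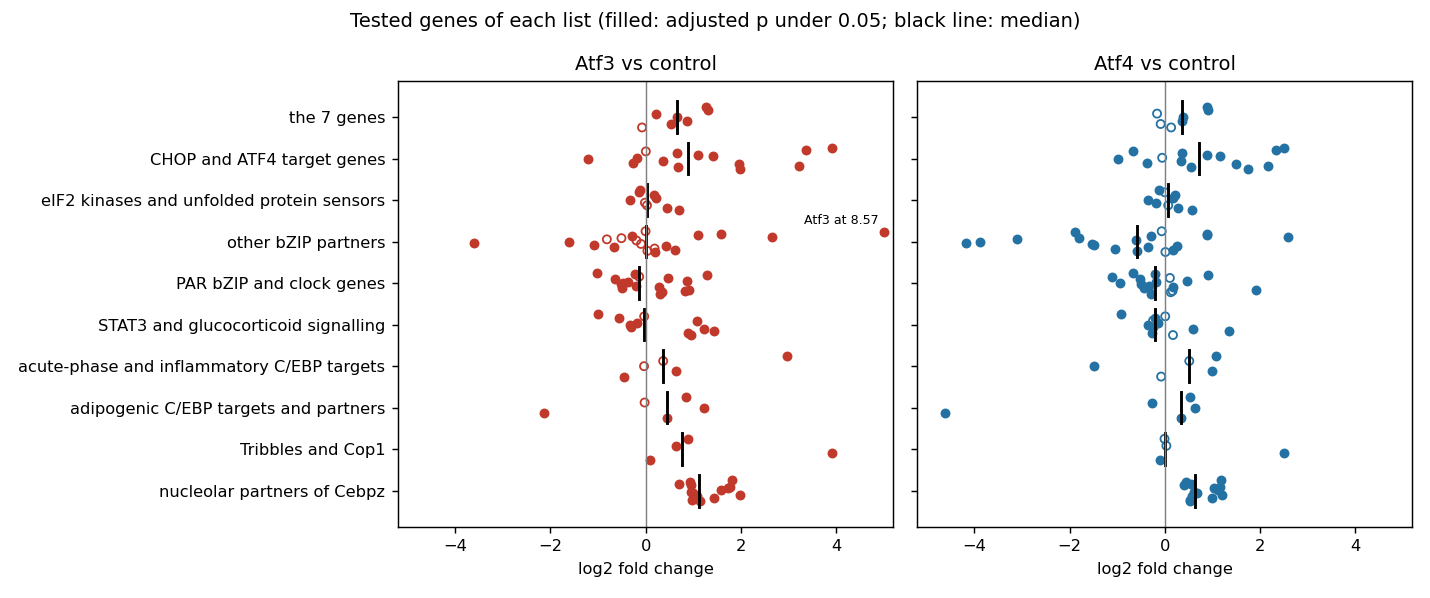
Log2 difference from control (horizontal axis) of every tested gene in the 7 genes and the 9 lists, for the Atf3 line (left) and the Atf4 line (right); filled points passed an adjusted p of 0.05 and the black line is the median of the list. The 14 nucleolar genes all lie to the right of 0 in both panels, and Atf3 itself, at 8.57, is drawn at the edge of its panel.

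Some C/EBP genes are abundant in microglia, astrocytes and vascular cells, so markers of these cells were measured beside them. The 11 microglia and myeloid markers summed to 3.16 to 4.14 CPM in control, 3.93 to 5.01 in the Atf3 line and 2.76 to 3.14 in the Atf4 line, most of it Cd68, and C1qa was at 0 in every library. The 7 mural cell and fibroblast markers summed to at most 1.01 CPM in any library. The 6 astrocyte markers summed to 667.2 to 744.1 CPM in control, 828.2 to 1011 in the Atf3 line and 862.6 to 1017 in the Atf4 line, most of it Slc1a3. Of these 6, 2 rose and 4 fell in each transgenic line, with median log2 differences of -0.63 and -0.74 (in the Atf3 line 2 and 3 without control replicates 4 and 5). Slc1a3 rose by 0.86 and 0.84, while Gfap fell in both and S100b fell by 1.22 and 1.26. Endothelial markers summed to 44.9 to 49.1, 12.7 to 18.8 and 18.5 to 21.7 CPM, most of it Kdr. Of 6 endothelial markers 4 were tested, of which 2 rose and 2 fell in the Atf3 line (2 and 1 without control replicates 4 and 5), and 2 rose and 1 fell with the Atf4 transgene. Kdr fell by 2.14 and 1.43 on the log2 scale, and Tek rose by 1.42 and 0.87. Oligodendrocyte lineage markers, of which Olig1 and Olig2 were the most abundant, summed to 3845 to 4417, 2921 to 3733 and 3474 to 4047 CPM. Beside these marker counts, 36.8% of all genes rose and 36.3% fell in the Atf3 line, and 31.8% and 29.6% in the Atf4 line. The part of astrocyte and oligodendrocyte lineage cells in the differences of the 7 genes was not tested.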

How the data were processed

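The values deposited by the authors are unnormalized whole-number counts for 55416 Ensembl identifiers in 15 libraries, 5 for each of 3 lines. Per the submitters' processing notes STAR, edgeR and the build mm10 were used. Their versions, and the annotation, strand setting and program behind the counts, are not given here. Per the labels' protocols, the NEBNext Ultra RNA kit, an unstranded kit, was used, with paired reads of 150 bases. Overlapping genes on opposite strands can therefore share counts.

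Group and replicate number come from each title. Symbols and coordinates come from GENCODE M21 (GRCm38), with 52135 identifiers matched, and promoter sequences from RefSeq. The 3281 unmatched identifiers held at most 0.208% of a library. Library totals were 53.7 to 69.6 M. Replicates differed by more than sampling noise (chi-square per degree of freedom 5.47 to 53.4).

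The analysis used edgeR 4.0.16 under R 4.3.3: TMM scaling, filterByExpr, and the quasi-likelihood test with all 15 libraries in 1 fit and a coefficient per line. P-values were two-sided and Benjamini-Hochberg adjusted over the 18244 genes that passed, and an adjusted p under 0.05 was called. SE is the log2 difference divided by the square root of F, and intervals are 1.96 SE either way. Log2 CPM for the profile comparison used a prior count of 2. Levels between genes were divided by merged exon length.

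Alternatives were DESeq2 1.42.0, limma-voom 3.58.1, RLE, upper-quartile and plain-total scaling, no filter, a filter at 1 CPM in 5 libraries, only the libraries compared, a replicate block, leaving out each library, and leaving out control replicates 4 and 5. Shares and ratios by principal transcript length and the list counts without control replicates 4 and 5 were added after seeing the data. The members, the 9 pathway lists and the 7 marker lists were chosen with earlier results of these data known. Named genes were the 7 members, Atf3, Atf4 and Cebpe, the 3 nearest profiles per called member, and up to 2 rising and 2 falling genes per list and comparison whose log2 CPM averaged 0 or more, of which the text uses a subset. Genes whose exons overlap a member, Sox2, and markers at or near 0 were named after their values were seen.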

Additional observations from a re-analysis of the deposited data

How the results depend on the processing

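Of 525 values (the 21 log2 differences of the 7 genes under 25 alternatives), 500 kept their direction and their side of the threshold. Plain library totals moved the median over all genes from -0.017 to -0.16 (Atf3 against control) and from 0.0070 to 0.11 (Atf4 against Atf3), and upper-quartile scaling moved the former to -0.14, so differences under these scalings are read against those medians. Cebpd in the Atf3 line lost its call under limma-voom (0.20), RLE (0.20), upper-quartile scaling (0.089), plain totals (0.071), the filter at 1 CPM (0.15), the fit of only 2 lines (0.21) and the replicate block (0.21, adjusted p = 0.0815), and leaving out 1 library gave 0.16 to 0.29. Its difference in the Atf4 line was called with upper-quartile scaling (-0.22). Cebpg lost its call between the Atf4 and Atf3 lines with plain totals (-0.17). Ddit3 in the Atf4 line changed sign to 0.016 without control replicates 4 and 5, and its values with 1 library left out were -0.16 to -0.060. Nfil3 in the Atf3 line changed sign to 0.0011 without Atf3 replicate 5 (range with 1 library left out, -0.16 to 0.0011). Nfil3 between the Atf4 and Atf3 lines was called with plain totals (0.31) and without Atf3 replicate 4 (0.30, range 0.13 to 0.30). The cause of these changes was not tested.

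Replicate numbers did not pair the libraries: correlations of same-numbered deviations ran from -0.079 to 0.098 over 15 pairs, and 3 of 15 libraries correlated best with their own number. With the block, 13114, 10934 and 7545 genes were called against 13328, 11202 and 7895, and only Cebpd against control in the Atf3 line lost a call among the 7 genes. Counts of called genes stayed within 11265 to 14358, 9907 to 11372 and 7092 to 8524 over all alternatives.

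Shares depend on the length used. In plain CPM (control, Atf3 and Atf4 lines) they were 7.84, 11.04 and 11.3% for Cebpa, 5.56, 8.10 and 8.17% for Cebpb, and 9.48, 8.08 and 6.96% for Ddit3. By principal transcript length they were 8.23, 11.6 and 12.1% for Cebpa, 10.2, 14.8 and 15.3% for Cebpb, and 29.3, 25.05 and 22.05% for Ddit3. The order of the lines was the same under all 3. The same 3 nearest profiles were found for each gene with RLE scaling and with a prior count of 0.5. Nfil3 had the lowest counts of the 7 genes, 161 to 276 per library.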
